A study of Mus musculus with 21 samples.

Results

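The genes described here are 37 targets of the nuclear receptor PPARA and enzymes of fatty acid oxidation, measured in mouse liver after nanosized titanium dioxide (nano-TiO2) had been put into the airways. They were chosen by symbol, and each was read from the probe with the brightest liver signal among the probes whose accession maps to it. All 37 had a probe, 49 probes in all, and all 37 passed the filter on dim probes, out of 17640 features tested. By role, 17 act in mitochondrial oxidation, 7 in peroxisomes, 1 in ketone body formation, and 12 are other PPARA targets that handle, store or signal about fat, grouped as regulatory genes.

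Female C57BL/6 mice arrived at 5 to 7 weeks of age and were acclimatised for 1 to 3 weeks. TiO2 mice were given 162 µg of nano-TiO2 through the trachea in 1 dose, in 40 µl of a vehicle of saline and acellular lavage fluid from naive mice, and control mice received that vehicle alone. Livers were taken 1 day later from 5 control and 6 TiO2 mice, and 28 days later from 4 control and 6 TiO2 mice, all fed freely. Each of the 21 arrays held the liver RNA of 1 mouse (Cy5) against a reference RNA of 11 mouse cell lines (Cy3), so every level below is log2 of liver over reference.

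PPARA is a receptor that fatty acids activate, chiefly in hepatocytes during fasting. Paired with a retinoid X receptor, it binds DNA at direct repeats of a short motif and switches on genes that import fatty acids into mitochondria and peroxisomes, shorten them there and turn the product into ketone bodies. Cyp4a10, Cyp4a14, Fgf21, Angptl4 and Pdk4 are much used as readouts of its activity in mouse liver, and several of them also respond to feeding, hormones and the hour of the day.

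Promoter sequences in RefSeq (GRCm38.p6), running from 250 bases before to 50 after the start of the gene, were found for 31 of the 37 genes. The strict repeat, 2 copies of AGGTCA with any 1 base between them, searched on both strands, was in 0 of the 31 genes and in 0.0481% of all 27025 genes with a promoter. A looser form, 2 copies of AGGNCA spaced in the same way, was in 1 of the 31, Fabp1, and in 0.451% of all genes. The single hexamer AGGTCA, which the strict form contains at both ends, was in 6 of 31, or 19.4%, against 18.1% of all genes, and the 6 were Acadm, Acadvl, Cd36, Cpt1a, Fabp1 and Plin2. The stretches below are printed to show what a repeat looks like in Fabp1 beside single hexamers in 3 other members. Capitals mark the matches, all of which lie on the opposite strand, so the hexamer reads as TGACCT. The second copy of the looser repeat in Fabp1 reads as TGGCCT. In Fabp1 the looser repeat lies at bases -67 to -55 from the start, and a further hexamer at -9 to -4. These matches are letters in a short window and were not tested as binding sites.
Fabp1, chr6:71199772-71199878, plus strand: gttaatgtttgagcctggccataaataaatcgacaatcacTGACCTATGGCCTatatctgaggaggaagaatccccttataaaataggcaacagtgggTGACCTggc
Acadm, chr3:153944804-153944893, minus strand: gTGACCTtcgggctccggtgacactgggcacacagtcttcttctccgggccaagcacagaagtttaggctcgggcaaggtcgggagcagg
Cpt1a, chr19:3323167-3323256, plus strand: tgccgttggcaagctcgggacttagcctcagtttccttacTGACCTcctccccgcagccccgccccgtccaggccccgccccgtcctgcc
Plin2, chr4:86670220-86670309, minus strand: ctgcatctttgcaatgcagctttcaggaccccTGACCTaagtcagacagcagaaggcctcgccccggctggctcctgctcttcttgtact

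The arrays carried a liver profile: the median level of 13 hepatocyte markers was 5.51 to 7.12, and all 13 exceeded background in each mouse. Because the RNA protocol of the labels speaks of lung, lung markers were read too. The lung marker Ager exceeded background on 0 of 21 arrays and Sftpc on 2, while 3 to 10 of the 12 lung markers on the list exceeded it per array, with a median level of -0.075 to 0.23. Their part in the results was not tested. Adipocyte markers bear on fat genes. Adipoq and Cfd were above background on 0 arrays, Plin1 on 1, Lep on 5 and Fabp4 on all 21. The group means of Fabp4 were 2.63 to 3.04. Per array, 4 to 6 of the 9 adipocyte markers on the list were above background, and their part in the results was not tested. The arrays were scanned on 3 days, each with arrays of all 4 groups, and scan day 2 had more spots well above background (22235 to 28287 per array) than scan day 1 (16222 to 18016) or scan day 3 (13902 to 17873). The leading principal component held 40.2% of the variance over all features, and scan day accounted for 91.7% of that component against 1.52% for group. There was 1 control array of each time point on scan day 1, and 1 control array of day 28 on scan day 3. Results that rest on those arrays are also given within scan days, where such a difference rests on 1 control mouse. The labels call the mice biological replicates.

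In the control livers of day 1, 34 of the 37 genes were above the reference, with a median level of 2.25 and a range of -0.78 to 10.11. Ucp2, an uncoupling protein of the inner mitochondrial membrane, Acot2, a mitochondrial acyl-CoA thioesterase, and the hormone gene Fgf21 were below it. On every one of the arrays that measured them, 30 genes were above the reference. The liver signal of 34 genes was well above background on all 21 arrays. The exceptions were Decr1, on 20 arrays, Fgf21, on 11, and Acot2, on 5, so the values of Fgf21 and Acot2 lie close to the background. Acot2 passed the filter on dim probes through the TiO2 group of day 28 alone (3 of 6 arrays). Fgf21 passed it through the day 28 groups alone, control (4 of 4 arrays) and TiO2 (4 of 6). Both genes remain in the counts and medians below, where the filter favours higher values at day 28 for them. In bulk liver, fewer cells of a type and less RNA per cell cannot be told apart.

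One day after instillation, no member differed between TiO2 and control livers past an adjusted p of 0.05 (0 of 37, against 0% of all features), by limma with Benjamini-Hochberg adjustment over all features. At an unadjusted p under 0.05 there were 2 members, both lower, the thiolases Acaa1a and Acaa2, against 1.72% of all features. A block for scan day gave 5, which added Acadl, Hadh and Ucp2, against 4.09% of all features. The differences leaned downward: 27 of 37 genes were lower in TiO2 mice, with a median difference of -0.15 (log2), while 51.9% of all features were lower, with a median of -0.0055. Within scan days 1, 2 and 3 the member median was -0.19, -0.094 and -0.078, with 27, 28 and 20 of the 37 genes lower. With scan day as a block 24 of 37 were lower, beside 9532 of 17640 features. Leaving out each array in turn moved the member median between -0.19 and -0.098. Genes of a pathway move together in a mouse, so the genes in these counts are not independent, and the lean was not tested. The range of differences was -0.58 for Acot1, a cytosolic acyl-CoA thioesterase, to 0.30 for Ucp2.

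**Figure D1:**
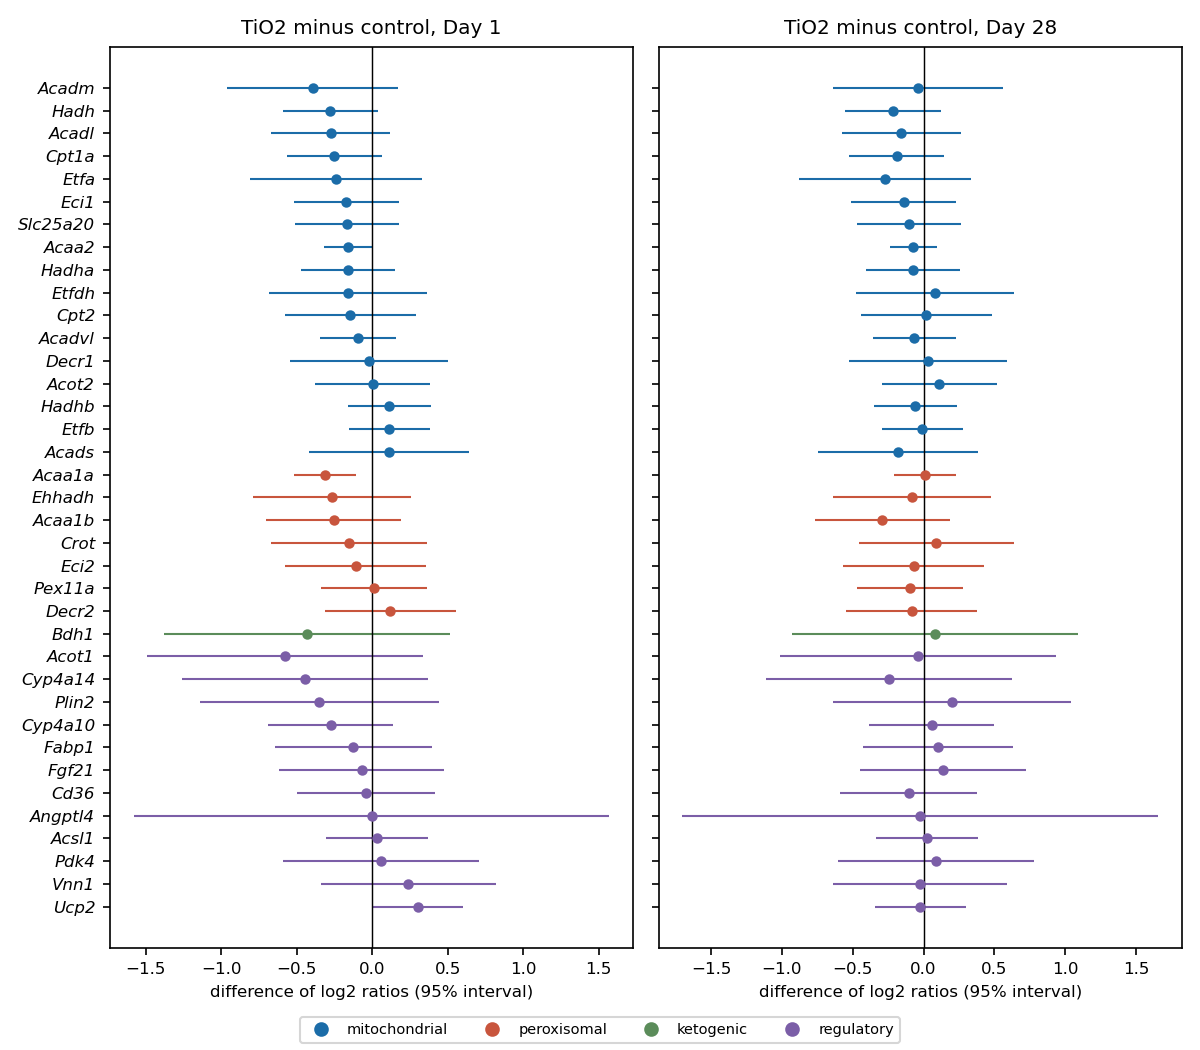
Difference between TiO2 and control livers for the 37 genes at day 1 (left) and day 28 (right), in log2 units, by role. Points are the differences and bars their 95% intervals; at day 1 most points lie left of 0, and the intervals of Acaa1a and Acaa2 lie below it.

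Of the 17 mitochondrial genes, 13 were lower at day 1 in TiO2 mice, with a median of -0.16, and 4 were higher. Acaa2, a mitochondrial thiolase, was at 4.19, 3.99, 4.10, 4.01 and 4.06 in the control mice and at 3.83 to 4.02, median 3.89, in the TiO2 mice. The groups overlapped, and all 6 TiO2 mice lay below the control mean. The difference was -0.16 ± 0.075 (SE), a fold of 0.895, with an unadjusted p of 0.045 and an adjusted p of 1.00 in limma. It was -0.21, -0.20 and -0.13 within the 3 scan days.

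Hadh, a mitochondrial hydroxyacyl-CoA dehydrogenase, was at 3.54, 2.55, 2.72, 2.70 and 2.85 in control livers and at 2.35 to 3.02, median 2.53, in TiO2 livers at day 1. The control mouse at 3.54 stood above all others, and 5 of 6 TiO2 mice were below the control mean. The difference was -0.28 ± 0.15 (SE), with an adjusted p of 1.00 in limma. With scan day as a block it was -0.33 ± 0.11 (SE), with an adjusted p of 0.988. Acadm, the dehydrogenase of medium-chain fatty acids, had the lowest point estimate of the class, -0.40 ± 0.27 (SE). Both subunits of the trifunctional protein were measured, with -0.16 ± 0.15 for Hadha and 0.11 ± 0.13 for Hadhb. Fatty acid entry was represented by Cpt1a, the regulated carnitine transferase, at -0.25 ± 0.15, by the carrier Slc25a20 at -0.17 ± 0.17 and by Cpt2 at -0.14 ± 0.21. In the fit without a block the 95% interval of each of these included 0, while with scan day as a block the unadjusted p of Hadh was 0.0096. In the fit without a block the interval of every one of the 17 mitochondrial genes lay within a 2-fold change in either direction.

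Among the 7 peroxisomal genes 5 were lower at day 1, with a median of -0.15. Acaa1a, a peroxisomal thiolase, was at 2.12, 1.74, 1.58, 1.82 and 1.78 in control livers and at 1.27 to 1.65, median 1.51, in TiO2 livers. All 6 TiO2 mice were below the control mean, and 1 control mouse lay within the TiO2 range. The difference was -0.31 ± 0.10 (SE), a fold of 0.805 with a 95% interval of 0.697 to 0.930. Its unadjusted p was 0.00504 and its adjusted p 1.00 in limma. Within scan days it was -0.75, -0.18 and -0.16, so it was largest on scan day 1, where 1 control mouse stands against 2 TiO2 mice. The other probes of Acaa1a gave 0.0084 and -0.30 in the same comparison.

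Acaa1b is a near copy of Acaa1a, and a probe of either gene may take up RNA of the other. It was at 3.33, 3.83, 4.23, 4.54 and 4.33 in control livers and at 3.16 to 4.21, median 3.98, in TiO2 livers at day 1, and the groups overlapped. The difference was -0.26 ± 0.21 (SE). Ehhadh, the bifunctional enzyme, differed by -0.26 ± 0.25, and Decr2, a dienoyl-CoA reductase, by 0.12 ± 0.21. Crot, which hands chain-shortened fatty acids on as carnitine esters, and Eci2, an isomerase, had -0.15 ± 0.25 and -0.11 ± 0.22. Pex11a, a membrane protein of dividing peroxisomes, had 0.013 ± 0.17.

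Bdh1, which makes the ketone body hydroxybutyrate from acetoacetate, was the single ketogenic member. Its level at day 1 was 2.66, 3.69, 3.79, 3.68 and 3.91 in control livers and 1.54 to 4.00, median 3.28, in TiO2 livers. Both groups included low mice, all of them on scan day 1. The difference was -0.43 ± 0.46 (SE), and leaving out TiO2 day 1 replicate 2 brought it to -0.12.

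Of the 12 regulatory genes, 8 were lower and 4 higher at day 1, with a median of -0.056. With scan day as a block 6 of the 12 were lower. Ucp2 was at -0.57, -0.74, -0.82, -0.97 and -0.77 in control livers and at -0.99 to -0.18, median -0.37, in TiO2 livers. It was higher than the control mean in 5 of 6 TiO2 mice, though the ranges overlapped. The difference was 0.30 ± 0.15 (SE), a fold of 1.23, with an unadjusted p of 0.0513 and an adjusted p of 1.00 in limma, and it was 0.34, -0.07 and 0.54 within scan days. The other probes of Ucp2 gave -0.041 and -0.012, but each was above background on 1 array only and failed the filter. The classical PPARA readouts gave -0.45 ± 0.39 for Cyp4a14, -0.27 ± 0.20 for Cyp4a10, 0.06 ± 0.31 for Pdk4, -0.0043 ± 0.76 for Angptl4 and -0.07 ± 0.26 for Fgf21. Another probe of Cyp4a10 gave -0.13. Cyp4a14 and Cyp4a10 are fatty acid hydroxylases, Pdk4 is a kinase that holds back glucose oxidation, Angptl4 inhibits lipoprotein lipase, and Fgf21 is a liver hormone of fasting. Fabp1, the liver fatty acid binding protein, had -0.13 ± 0.25, Cd36, a fatty acid transporter, -0.04 ± 0.22, and Plin2, a lipid droplet coat protein, -0.35 ± 0.38. Precision differed among members: the 95% interval lay within a 2-fold change for 32 of 37, and did not for Bdh1, Cyp4a14, Angptl4, Plin2 and Acot1.

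**Figure D2:**
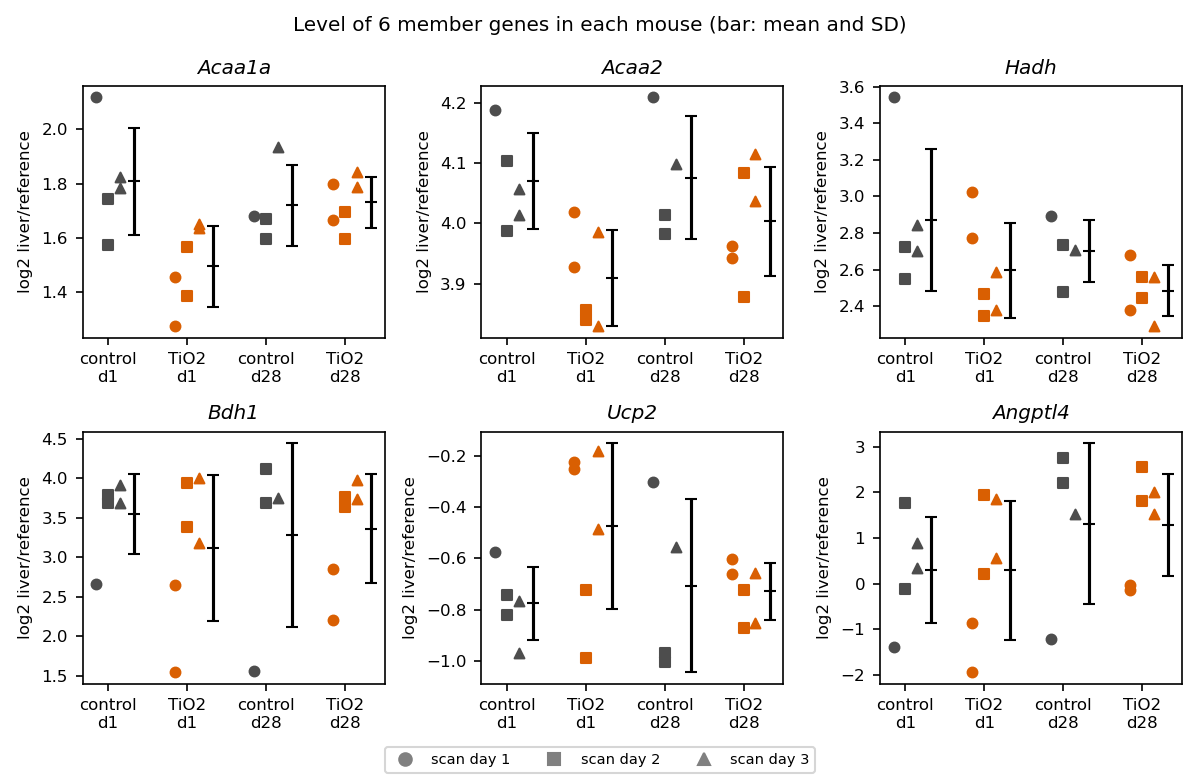
Level of 6 of the genes in each mouse, as log2 of liver over reference, with marker shape for scan day and a bar for the group mean and SD. All TiO2 mice of day 1 lie below the control mean for Acaa1a and Acaa2. For Bdh1 and Angptl4 the lowest value of each group comes from an array of scan day 1.

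After 28 days no member passed an adjusted p of 0.05 in limma (0 of 37, against 0% of all features), and 0 of 37 had an unadjusted p under 0.05, against 0.952% of all features. In the fit with scan day as a block 1 did, Acaa1b, against 2.98%. There were 24 lower and 13 higher genes, with a median of -0.038, while 48.5% of all features were lower. The member median was -0.29, 0.013 and 0.097 within the 3 scan days, so its direction did not hold across them. By role, 13 of 17 mitochondrial genes were lower (median -0.073), 5 of 7 peroxisomal genes (median -0.084) and 6 of 12 regulatory genes (median 0.0017).

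The smallest p of the mitochondrial genes at day 28 belonged to Hadh. Its level was 2.89, 2.73, 2.48 and 2.70 in control livers and 2.29 to 2.68, median 2.50, in TiO2 livers. All 6 TiO2 mice were below the control mean, with overlapping ranges. The difference was -0.22 ± 0.16 (SE), with an adjusted p of 1.00 in limma, and -0.36, -0.10 and -0.28 within scan days. Hadh was thus lower in TiO2 mice on each scan day at both times, with no adjusted p under 0.988 in the fits with and without the scan day block. These differences rest on 1 control mouse on scan day 1 at both times, and on 1 on scan day 3 at day 28.

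Acaa1b had the smallest p of the peroxisomal genes at day 28. It was at 3.86, 4.26, 4.28 and 4.40 in control livers and at 3.43 to 4.23, median 4.05, in TiO2 livers. The groups overlapped, and 5 of 6 TiO2 mice were below the control mean. The difference was -0.29 ± 0.23 (SE), a fold of 0.818, with an adjusted p of 1.00 in limma, and it was -0.37, -0.22 and -0.21 within scan days. Acaa1a, lower at day 1, stood at 1.68, 1.67, 1.60 and 1.94 in control livers and at 1.60 to 1.84, median 1.74, in TiO2 livers, a difference of 0.011 ± 0.11 (SE). Its other probes gave -0.16 and -0.39 in this comparison.

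For the ketogenic and regulatory genes the members in question at day 28 were Bdh1 and Cyp4a14. Bdh1 was at 1.55, 4.11, 3.69 and 3.75 in control livers and at 2.20 to 3.98, median 3.69, in TiO2 livers at day 28, and its difference of 0.083 ± 0.49 (SE) became -0.49 without control day 28 replicate 1. Cyp4a14 was at 7.42, 7.17, 8.06 and 8.51 in control livers and at 5.61 to 8.61, median 7.87, in TiO2 livers. TiO2 day 28 replicate 1 was the mouse at 5.61. The difference was -0.25 ± 0.42 (SE), and it was 0.14 without that mouse.

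The effect of TiO2 at day 28 minus that at day 1 was tested directly. No member passed an adjusted p of 0.05 in limma (0 of 37, against 0% of features), and 1 had an unadjusted p under 0.05, against 0.703%. That gene was Acaa1a, with a difference of effects of 0.32 ± 0.15 (SE) and an adjusted p of 1.00. The other probes of Acaa1a gave -0.17 and -0.097, in the opposite direction. Ucp2 joined it with scan day as a block, which made 2, against 2.91% of features. The difference of effects was below 0 in 12 of 37 members and in 48.9% of features. The 2 effects come from separate mice. Over the 37 genes, 17 were lower at both times, 3 higher at both and 17 in opposite directions. Over the 17640 features these counts were 4718, 4641 and 8281. The Pearson correlation of the 2 effects across genes, which are not independent replicates, was 0.13, beside 0.11 over all features. The Spearman correlation was 0.18, beside 0.088.

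Between day 1 and day 28 the vehicle controls showed 0 of 37 members past the adjusted threshold in limma, against 0% of features, and 1 with an unadjusted p under 0.05, against 3.01% of features. There were 2 under the scan day block, Hadhb and Angptl4, against 7.69%. Of the 37 genes 18 were lower at day 28, beside 51.4% of features. The gene of the fit without a block was Hadhb, which was at 1.18, 1.98, 1.69, 1.97 and 1.71 at day 1 and at 2.20, 1.88, 1.86 and 2.27 at day 28. All 4 mice of day 28 were above the day 1 mean, with overlapping ranges. The difference was 0.34 ± 0.15 (SE), a fold of 1.27, with an adjusted p of 1.00, and it was 1.02, 0.03 and 0.43 within scan days. Decr2 had a difference of 0.36 ± 0.23 (SE) and Cyp4a10 one of -0.42 ± 0.22. Decr2 was at 1.20, 2.45, 2.25, 2.41 and 2.23 at day 1 and at 2.54, 2.55, 2.63 and 2.13 at day 28. The mouse at 1.20 stood apart, and without it the difference was 0.13, while within scan days it was 1.34, 0.24 and -0.19. Cyp4a10 was at 4.47, 3.91, 4.70, 4.49 and 4.38 at day 1 and at 4.15, 3.30, 4.07 and 4.34 at day 28, and all 4 mice of day 28 were below the day 1 mean. Its difference was -0.32, -0.62 and -0.09 within scan days, and another probe of Cyp4a10 gave -0.18.

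In the TiO2 mice, 0 of 37 members differed between the days past the adjusted threshold, against 0.034% of features, which is 6 features. Acaa1a alone had an unadjusted p under 0.05, against 3.8% of features, and was higher at day 28 in 6 of 6 mice than the day 1 mean, by 0.24 ± 0.10 (SE), with an adjusted p of 1.00 in limma. Its other probes gave -0.029 and 0.069. Under the scan day block there were 5, which added Angptl4, Plin2, Decr1 and Ucp2, against 8.73% of features. In all 12 of 37 were lower at day 28, beside 48.7% of features. All 7 peroxisomal genes had a higher mean at day 28 in TiO2 mice, with differences of 0.028 to 0.34, and 5 of the 7 did in control mice.

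Changes between the days can be set side by side in control and TiO2 mice, which share no arrays but share the scan days. Across the 37 genes 16 were higher at day 28 in both, 9 lower in both and 12 opposite. Over the 17640 features these counts were 5284, 5294 and 7062. The 16 include Fgf21 and Acot2, which passed the filter on dim probes through groups of day 28 alone. A count or correlation without them was not made. The Pearson correlation across the 37 genes was 0.71, beside 0.41 over all features, and the Spearman correlation 0.54, beside 0.31. Angptl4 lay farthest out, and it was chosen after its values were seen. It was at -1.38, 1.75, -0.12, 0.89 and 0.33 in control mice of day 1 and at -1.22, 2.20, 2.74 and 1.51 in those of day 28. In TiO2 mice Angptl4 ran from -1.95 to 1.94, median 0.38, at day 1 and from -0.14 to 2.56, median 1.67, at day 28. The ranges overlapped in both. The change was 1.02 ± 0.84 (SE) in control mice and 1.00 ± 0.72 in TiO2 mice. With single arrays left out it ran in control mice from 0.54 (without control day 28 replicate 3) to 1.86 (without control day 28 replicate 1), and in TiO2 mice from 0.55 (without TiO2 day 1 replicate 1) to 1.33 (without TiO2 day 1 replicate 4). Without scan day 2 the change in control mice was 0.20. Within the 3 scan days it was 0.16, 1.66 and 0.90 in control mice and 1.32, 1.11 and 0.57 in TiO2 mice. With scan day as a block these became 1.10 ± 0.39, with an adjusted p of 0.524, and 1.00 ± 0.33, with an adjusted p of 0.392 in limma.

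**Figure D3:**
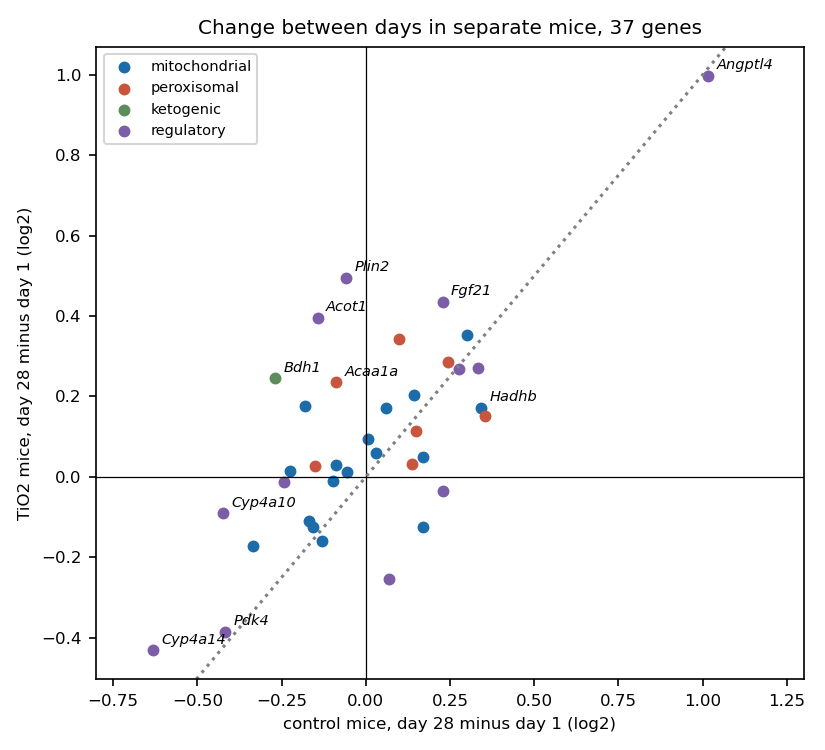
Difference between day 28 and day 1 in control mice (x axis) and in TiO2 mice (y axis), in log2 units, for the 37 genes coloured by role, with the line of equality dotted. Angptl4 lies near 1 on both axes, while Cyp4a14 and Pdk4 lie below 0 on both.

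Mice of the same group differed from each other more than the groups did. Group membership accounted for a median of 13.2% of the variance of a member over the 21 arrays. Scan day accounted for a median of 40.3%, from 3.53 to 83.1%, beside 35.8% over all features, and for more than 50% in 11 members. Angptl4 spanned 4.69 log2 units over the arrays, a 25.8-fold range, with means of -0.93, 1.64 and 1.24 on the 3 scan days. Bdh1 had means of 2.24, 3.75 and 3.75, Plin2 of 0.47, 1.62 and 1.68, and Acadm of 1.64, 2.50 and 2.49. These 4 genes were low on scan day 1. The flavoprotein genes Etfa (2.79, 2.07 and 2.16) and Etfdh (3.70, 3.05 and 3.04), which pass electrons from the dehydrogenases to the respiratory chain, were high on that day. Fabp1, with means of 9.53, 9.88 and 10.44, had the highest share with scan day, 83.1%. Acsl1, which activates long-chain fatty acids, and Pdk4 had the lowest shares, 3.53 and 4.00%. Whether the scan days differ by mouse, by RNA or by hybridisation was not tested. Within groups the SD was lowest for Acaa2 (0.087) and highest for Angptl4 (1.39), with a median of 0.38.

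**Figure D4:**
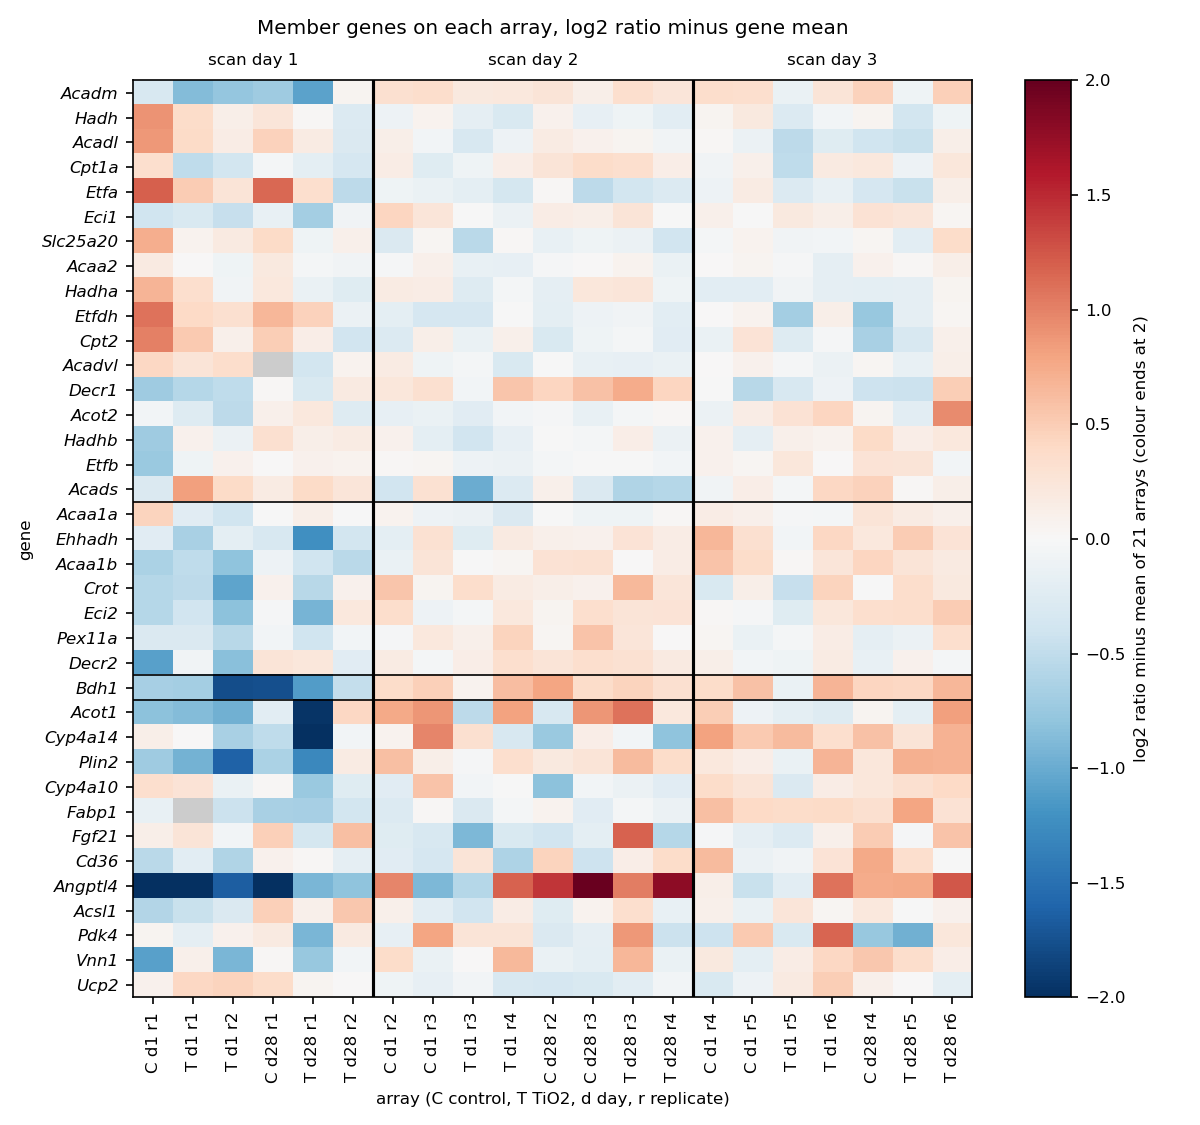
Level of the 37 genes on each of the 21 arrays minus the mean of the gene, in log2 units, with columns ordered by scan day and then group; grey marks a missing value. The arrays of scan day 1 are low in Angptl4 and Bdh1 in all 4 groups.

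The variation between mice was also set against Cyp4a14, a gene that PPARA controls closely, in 8 relations over 21 mice, with a permutation test for each and Benjamini-Hochberg adjustment over the 8. The permutations took arrays of all scan days as interchangeable, so a shift shared by a scan day enters the p values. Scan day held 37.7% of the variance of Cyp4a14, and 4.00% (Pdk4) to 71.5% (Acadm) in the 8 other genes. Cyp4a10, a close relative in the same gene family, followed Cyp4a14 with Pearson r = 0.753 (permutation p = 0.00013, adjusted 0.00104) and Spearman rho = 0.671 (adjusted permutation p = 0.0107). Without the 2 mice farthest from the median of Cyp4a14, which were TiO2 day 28 replicates 1 and 4, r was 0.668. Within scan days it was 0.875, 0.823 and 0.00994, so the relation was not seen on scan day 3. The fatty acid hydroxylases share sequence, and a probe of one may take up RNA of the other.

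Acadm followed Cyp4a14 with r = 0.624 (permutation p = 0.00279, adjusted 0.00744) and rho = 0.591 (adjusted permutation p = 0.0206). Its r was 0.516 without the 2 mice and 0.647, 0.265 and 0.433 within scan days. For Ehhadh r was 0.686 (adjusted permutation p = 0.00732) and rho 0.573, and within scan days r was 0.803, -0.018 and -0.107, so this relation was seen on scan day 1 alone. Acot1 had r = 0.573 (adjusted permutation p = 0.0155) but rho = 0.381 (adjusted permutation p = 0.183), and r = 0.318 without the 2 mice. Within scan days it was 0.732, 0.339 and 0.718, and with values centred on group and scan day r was 0.700 (adjusted permutation p = 0.00184). That p is too small, because the permutations took the centred values as free although group and scan day means had been removed. Pdk4 (r = 0.349), Vnn1, a pantetheinase (r = 0.415), and Fgf21 (r = 0.169) did not pass, with adjusted permutation p of 0.162, 0.102 and 0.519. Their rho values were 0.195, 0.273 and 0.187, with adjusted permutation p of 0.476, 0.368 and 0.476. Within scan days r was 0.853, 0.655 and -0.117 for Pdk4, 0.293, -0.072 and -0.29 for Vnn1, and 0.739, 0.025 and 0.167 for Fgf21. Angptl4 had r = 0.0949 (adjusted permutation p = 0.694) and rho = 0.0299 (adjusted permutation p = 0.899) over all mice. Its values on scan day 1 were mostly below those of the other days, and within scan days its r with Cyp4a14 was -0.546, -0.770 and -0.290.

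**Figure D5:**
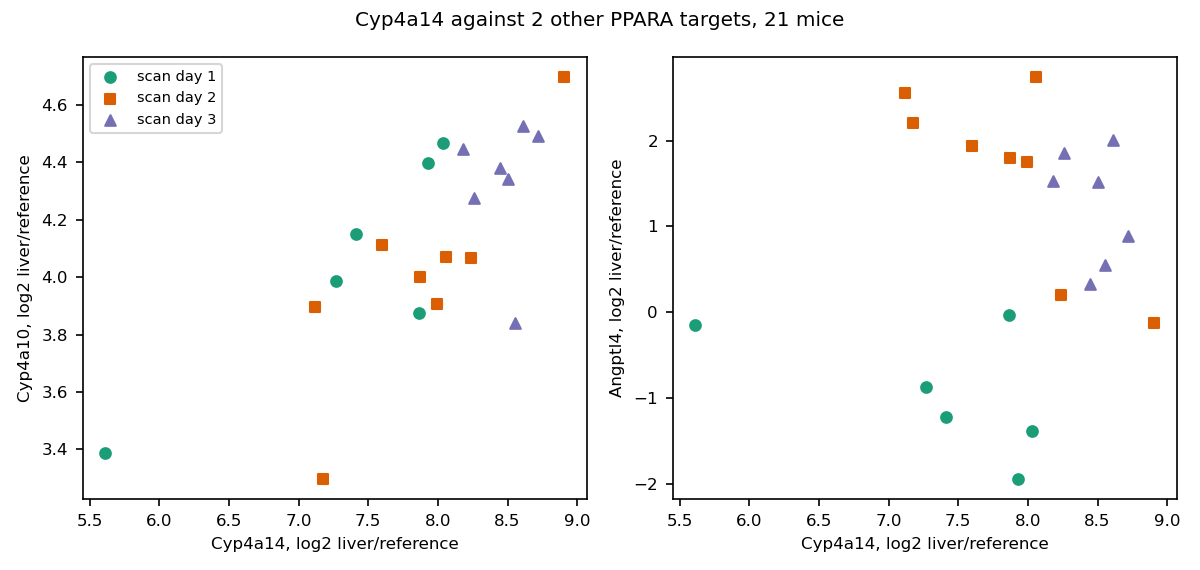
Level of Cyp4a14 (x axis) against Cyp4a10 (left) and Angptl4 (right) in the 21 mice, as log2 of liver over reference, with colour and shape for scan day. Cyp4a10 is lowest in the mice lowest in Cyp4a14, and the Angptl4 values of scan day 1 all lie below 0.

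Other genes of the pathway were taken from a list of 55, of which 52 were tested. None passed an adjusted p of 0.05 in any comparison in limma, and 2 of the 52 had an unadjusted p under 0.05 at day 1 (against 1.72% of all features), 1 at day 28 (against 0.952%), 0 for the difference of effects (against 0.703%), 1 between control days (against 3.01%) and 4 between TiO2 days (against 3.8%). At day 1, 36 of 52 were lower in TiO2 mice, with a median of -0.11, and at day 28 33 of 52, with a median of -0.042. Ppara itself, the receptor gene, was at 4.36 ± 0.22 (SD) in control and 4.12 ± 0.42 in TiO2 livers at day 1, a difference of -0.24 ± 0.24 (SE), and differed by -0.06 ± 0.25 at day 28.

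The smallest p values of the list at day 1 belonged to Acad10, an acyl-CoA dehydrogenase family member, at -0.33 ± 0.13 (SE), Gpd1, the cytosolic glycerol phosphate dehydrogenase, at -0.30 ± 0.14, and Phyh, a peroxisomal hydroxylase of branched fatty acids, at -0.22 ± 0.13. Without control day 1 replicate 1 the difference of Acad10 was -0.20, and within scan days it was -0.74, -0.087 and -0.44. Gpd1 had -0.60, -0.091 and -0.19 within scan days, and another probe of it gave 0.028. Phyh had -0.20, -0.0069 and -0.33 within scan days. At day 28 they belonged to the thioesterase Acot3 at -0.47 ± 0.21, the fatty acid activating enzyme Acsl5 at -0.26 ± 0.16 and the peroxisomal thioesterase Acot8 at -0.25 ± 0.15. Each of these 6 had an adjusted p of 1.00 in limma. Within scan days the difference of Acot3 was -0.69, -0.068 and -0.80, and it was above background on 3 of the 6 TiO2 arrays of day 28. The scanner software's ratio gave -2.18 for Acot3 and normexp on all spots -0.31. Acsl5 had -0.35, -0.11 and -0.47 within scan days, -0.16 without control day 28 replicate 4 and 0.070 with normexp on all spots. For Acot8 the values within scan days were -0.77, -0.027 and -0.11, and without control day 28 replicate 1 it was at -0.073.

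Neighbouring gene groups were counted in the same way. Of 26 genes of oxidative phosphorylation, 21 were lower in TiO2 mice at day 1, with a median of -0.071, and 14 at day 28, with a median of -0.017. Of 20 genes of fatty acid synthesis, 10 were lower at day 1, with a median of 0.0045, and 14 at day 28, with a median of -0.070. Of 14 clock genes, 7 were lower at day 1 and 7 at day 28. The count of these genes past an adjusted p of 0.05 in limma was 0 in both comparisons, and 1 oxidative phosphorylation gene at day 1 had an unadjusted p under 0.05, against 1.72% of all features. The difference between lists was not tested.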

How the data were processed

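Spot brightness was deposited as intensity, the median of the pixels of each spot and of its local background in the red and green channels, unnormalized per the file headers. Per the file headers, LogRatio gives log10 of red over green, which Feature Extraction computed from dye-normalized signals with background removed. The authors also deposited a table of log2 values with unstated scale, centring and direction. Its columns, with medians of -0.058 to -0.011, correlated at 0.9957 to 0.9971 with log2 red over green recomputed without background subtraction, which gave scale and direction, while its centring stays unknown. The headers name Feature Extraction 10.7.3.1, and the submitters' processing notes version 9.5.3.1.

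In limma 3.58.1 (R 4.3.3), background was corrected by normexp with offset 50, followed by loess within arrays, with control spots at weight 0 and marked spots dropped. Marked spots took the array's median background for normexp, a choice made after the data were seen. The mean spot signal was not among the columns used, so the median stood in. A probe stayed if its liver signal was well above background on at least 50% of the arrays of any group. Symbols came from RefSeq accessions (GRCm38.p6), with the brightest probe per gene, which gave 17640 features, including unnamed probes. The array design names mm8, so probe positions are not given. One model of the 4 group means was fitted, with Benjamini-Hochberg adjustment over all features at 0.05 for 5 comparisons, and it was tested on simulated data. Correlations used 100000 permutations. The number of arrays limits precision, and 21 were analysed where the design text speaks of 22.

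The members and lists were chosen with earlier results of these data known. Genes named with full values were, per role, those with the smallest p in each TiO2 comparison and between control days, any member past the adjusted threshold or with an unadjusted p under 0.05 in a TiO2 comparison, and, of the pathway list, the 3 smallest p in each TiO2 comparison and Ppara. Some genes that the rule names are not reported here. Angptl4 and G0s2 were added after their values were seen. Alternatives covered background, normalization, filter, probe choice, scan day, slide, array weights and left-out arrays.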

Additional observations from a re-analysis of the deposited data

Results flagged for a closer look

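Among the genes named with full values, 72 combinations of gene and group were searched for a mouse that stood apart from the rest of its group by Dixon's criterion, and 7 were found. Chance marks about 1 in 20 groups, and genes of the same array are not independent.

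Control day 1 replicate 1, on scan day 1, stood apart in 3 genes. Decr2 was at 1.20 there, against 2.23 to 2.45 in the other controls, and Bdh1 at 2.66 against 3.68 to 3.91. Acot8 was higher there, at 1.26 against 0.55 to 0.65. Control day 28 replicate 1, also on scan day 1, was low in 2 genes, with Bdh1 at 1.55 against 3.69 to 4.11 and Ppara at 3.40 against 4.50 to 4.58. Each of these arrays is the only control of its day on scan day 1.

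Of the TiO2 mice, day 1 replicate 2, on scan day 1, was low in Decr2, at 1.45 against 2.21 to 2.63. On scan day 2, day 28 replicate 4 was low in Hadhb, at 1.77 against 2.00 to 2.10.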

How the results depend on the processing

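The count of members past the adjusted threshold was 0 in all 5 comparisons under each of the alternatives run and with each array left out. No paired analysis was possible because replicate numbers follow deposition order and pair no mice. With normexp on all spots left aside, the median member difference at day 1 stayed below 0, at -0.19 to -0.083 (lowest count of lower members 22). In the same settings the median at day 28 ran from -0.13 without scan day 2 to 0.031 without scan day 1. Fitting normexp on all spots, an alternative added after the data were seen, moved the median change between days to -0.28 in control and -0.096 in TiO2 mice; it failed on 3 arrays, where its correlation with the values used was 0.659 on control day 28 replicate 4 and 0.879 and 0.883 on TiO2 day 28 replicates 3 and 5, against 0.996 or more on the others.

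The count of all features past the threshold between days in TiO2 mice, 6, became 3 with offset 10, 1 with the scanner software's ratio, 2 with scaling between arrays, 20 with scan day as a block, 32 with slide as a random block, 14 with slide as a fixed block, 15 with array weights, 3 with normexp on all spots, and 1, 0 and 0 without scan day 1, 2 and 3. Leaving out single arrays gave 5 to 8. For TiO2 against control at day 1 it was 0, with 3 under slide as a random block, 1 with array weights and 0 to 3 with single arrays left out (3 without TiO2 day 1 replicate 2). For control day 28 against day 1 it was 0, with 4 under array weights and 0 to 1 with single arrays left out (1 without control day 1 replicate 4).

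Named genes that changed sign had no adjusted p under the threshold. In TiO2 against control at day 28, Bdh1 was -0.077 with the scanner software's ratio, -0.19 with array weights, -0.073 without scan day 1 and -0.0059 without scan day 3, and -0.49 to 0.36 with single arrays left out (-0.041 without TiO2 replicate 6). Cyp4a14 was 0.20 with array weights and 0.033 without scan day 1, and -0.46 to 0.14 with single arrays left out. Ppara was 0.16 with normexp on all spots and 0.081 without scan day 2, and -0.35 to 0.085 with single arrays left out. With normexp on all spots Hadh was 0.10 and Acsl5 0.070. Between control days, Hadhb was -0.083 and Decr2 -0.13 with normexp on all spots, and Bdh1 was 0.041 with the scanner software's ratio, 0.0026 with array weights, 0.083 without scan day 1 and -0.55 to 0.30 with single arrays left out. With values centred on group and scan day, r with Cyp4a14 was -0.384 for Angptl4, 0.545 for Fgf21 (adjusted permutation p = 0.0310) and 0.442 for Ehhadh (adjusted permutation p = 0.0758). These p values are too small, because the permutations took the centred values as free although group and scan day means had been removed. The uncentred r of Fgf21, whose values lie close to the background, was 0.739, 0.025 and 0.167 within scan days. The causes were not tested.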

Other observations

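G0s2, an inhibitor of the lipase that releases fatty acids from lipid droplets, is no member and was picked after its values were seen. It was at 3.36, 1.69, 3.17, 2.61 and 3.19 in control mice of day 1 and at 1.55, 1.25, 1.24 and 1.37 in those of day 28. The ranges did not overlap, as in 0.748% of all features and 0 of the 37 members. The difference was -1.45 ± 0.39 (SE), with an adjusted p of 1.00 in limma and of 0.389 with scan day as a block. In TiO2 mice G0s2 ran from 1.40 to 3.53 at day 1 and from 0.65 to 2.48 at day 28, a difference of -1.06 ± 0.34 (SE) with an adjusted p of 0.778. Within the 3 scan days the control difference was -1.82, -1.18 and -1.54, and the TiO2 difference -2.30, -0.25 and -0.63. The difference between TiO2 and control mice was -0.35 ± 0.35 at day 1 and 0.046 ± 0.37 at day 28.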
